A study of Mus musculus with 21 samples.

Results

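The comparison described here set CD4+ T cells taken 24 h after mice received 0.8 µg of peptide against CD4+ T cells of the control group. Its members were chosen from the sample labels alone, by dose and time, and are 6 of the 21 libraries of the series, 3 of immunised and 3 of untreated mice. The result is described across all genes, of which 47643 were listed, 15300 reached a sum of 10 counts across all 21 libraries, and 12628 were tested for a difference from control. The other 5 groups, in triplicate, were cells taken at 4 h and 12 h after 0.8 µg and at 4 h, 12 h and 24 h after 80 µg.

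Every mouse, controls included, was of the strain labelled Tg4 Tiger Nr4a3-Tocky. Tg4 denotes a transgenic T cell receptor (TCR) that recognises a peptide of myelin basic protein (MBP), Tiger is a reporter of Il10 expression, and Nr4a3-Tocky makes a fluorescent Timer protein from Nr4a3, a gene switched on by TCR signalling. The Timer is blue when new and turns red as it matures, so a cell that is red but no longer blue has signalled and stopped. The mice were given the 4Y form of the MBP peptide under the skin in saline with no adjuvant, and their spleens were taken. Per the study's methods, cells at 24 h were sorted as Blue negative and Red positive, whereas the gate used for control cells was not given in the sources used here. Immunisation and the selection of responding cells can therefore not be told apart in this comparison. The ages of the mice were not given in the labels, both sexes were used, and Xist counts were above those of Y-linked genes in 2 of 3 control libraries and 1 of 3 libraries at 24 h.

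A naive CD4+ T cell is a small resting cell that circulates through lymphoid organs under the control of Klf2 and its target S1pr1 and that is kept alive by interleukin 7. When its receptor binds peptide it first transcribes immediate early genes such as the Nr4a family, then genes for ribosomes and protein synthesis, and only later copies its DNA and divides. Peptide given without adjuvant is known to leave many responding T cells tolerant, a state associated with inhibitory receptors such as PD-1 (Pdcd1).

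Total counts were 3788968, 4114620 and 3384571 in the 24 h libraries and 3249762, 3278354 and 2352800 in the control libraries, and 14125 to 14286 genes were detected at 24 h against 13134 to 13802 in the control. A floor of 3 counts in a library was 0.729 to 0.886 CPM (counts scaled to a common library total) at 24 h and 0.915 to 1.28 CPM in the control, and it covers counting error only. All of the 20 T cell identity genes were detected, with a summed level of 5370 to 6160 CPM at 24 h and 6610 to 7050 CPM in the control. B cell markers summed to 311 to 389 CPM at 24 h and 440 to 571 CPM in the control, myeloid markers to 61.2 to 74.7 and 44.2 to 64.9 CPM, markers of NK and CD8 T cells to 73.4 to 75.3 and 40.3 to 64.2 CPM, and erythroid and platelet markers to 57 to 217 and 42.9 to 215 CPM. Mitochondrial ribosomal RNA took 7.22% to 7.6% of counts at 24 h and 5.93% to 6.1% in the control. The myeloid marker Clec4f, the platelet marker Gp9 and the erythroid marker Klf1 were at 0 in the 6 libraries. The part of these other cells in the results was not tested, and in bulk RNA fewer cells of a type cannot be told apart from less RNA per cell.

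Replicate 3 of the 24 h group lay closer to the control than its partners. Among the genes called below, it was the 24 h library nearest to the control mean for 1457 of 2185 genes (66.7%), against 340 (15.6%) for replicate 1 and 378 (17.3%) for replicate 2. Leaving out a library changed some calls and values. For genes described here that were named by rule, this is given where a call changed or a value moved by over 1.5 times. For list counts it is given where a count moved by over 1.5 times, and for some smaller moves.

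A gene was called when its adjusted p was under 0.05 and its log2 fold change, shrunken by DESeq2, was above 1 or below -1. Against the control, 1447 genes were higher at 24 h (11.5% of genes tested) and 738 were lower (5.84%). By the adjusted p alone, 2632 genes were higher (20.8%) and 1919 lower (15.2%). The 3 libraries at 24 h did not overlap the 3 control libraries for 1407 of the higher and 711 of the lower genes, and for 6095 of the 12628 genes tested, called or not. Large rises outnumbered large falls, as 576 genes had a log2 fold change above 2 and 116 below -2, and 284 lay above 3 while 6 lay below -3. The split depended on the scaling, since library totals in place of median ratios moved the median of expressed genes to -0.15 (from -0.02) and gave 1222 higher and 1039 lower genes. In the plot of change against level, most genes of mitosis and DNA replication lie above the upper dotted line and most genes of naive cells below 0.

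**Figure D1:**
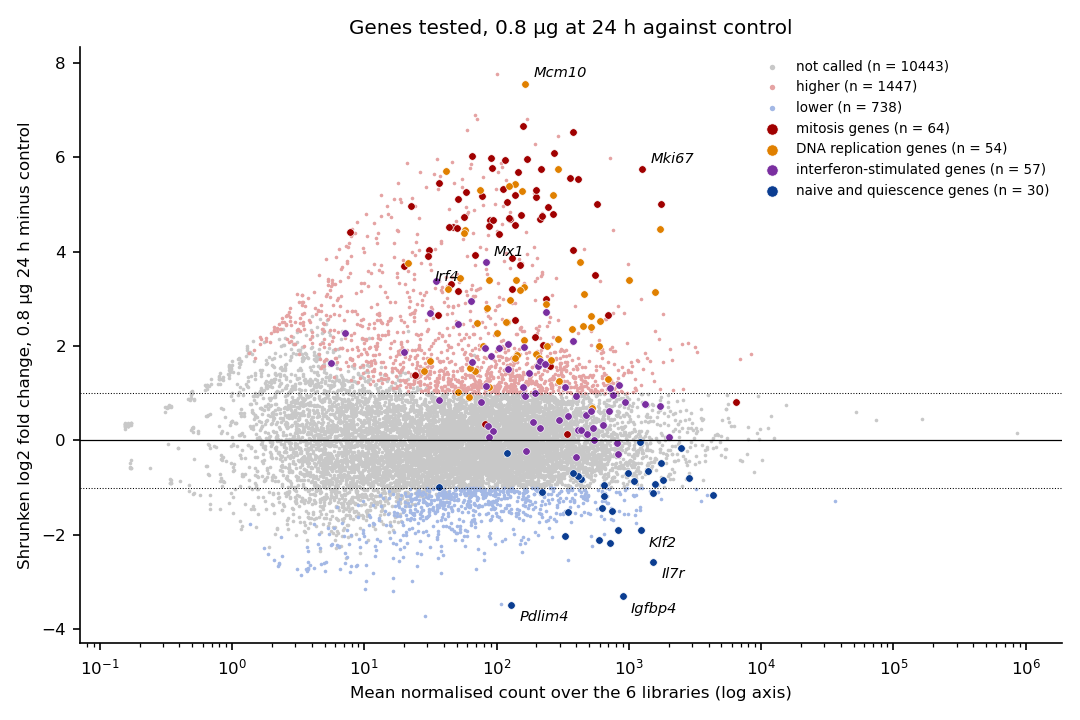
Each point is a gene tested, placed by its mean normalised count over the 6 libraries (log axis) and its shrunken log2 fold change, 0.8 µg at 24 h minus control, with dotted lines at 1 and -1. Higher genes (1447, pale red) and lower genes (738, pale blue) lie beside 10443 genes not called (grey), and members of 4 gene lists are drawn in darker colours, with Mki67 at 5.75 and Pdlim4 at -3.48.

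Genes were grouped into 34 lists by their known function. Among these lists, the largest shares of higher members were in DNA replication (52 of 54 tested genes, median log2 fold change 2.52), mitosis (61 of 64, median 4.69) and DNA damage and repair (22 of 29, median 2.13), against 11.5% and a median of 0 over all genes tested. The largest share of lower members was in the genes of naive and quiescent T cells (15 of 30, median -1.04), against 5.84% over all genes. The ribosomal protein genes stood at the other extreme, with 1 higher and 1 lower of 81 and a median of 0.06. By the adjusted p alone, 28 of the 81 were higher and 15 lower, against 20.8% and 15.2% over all genes tested. Most of these changes were short of the fold threshold.

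**Figure D2:**
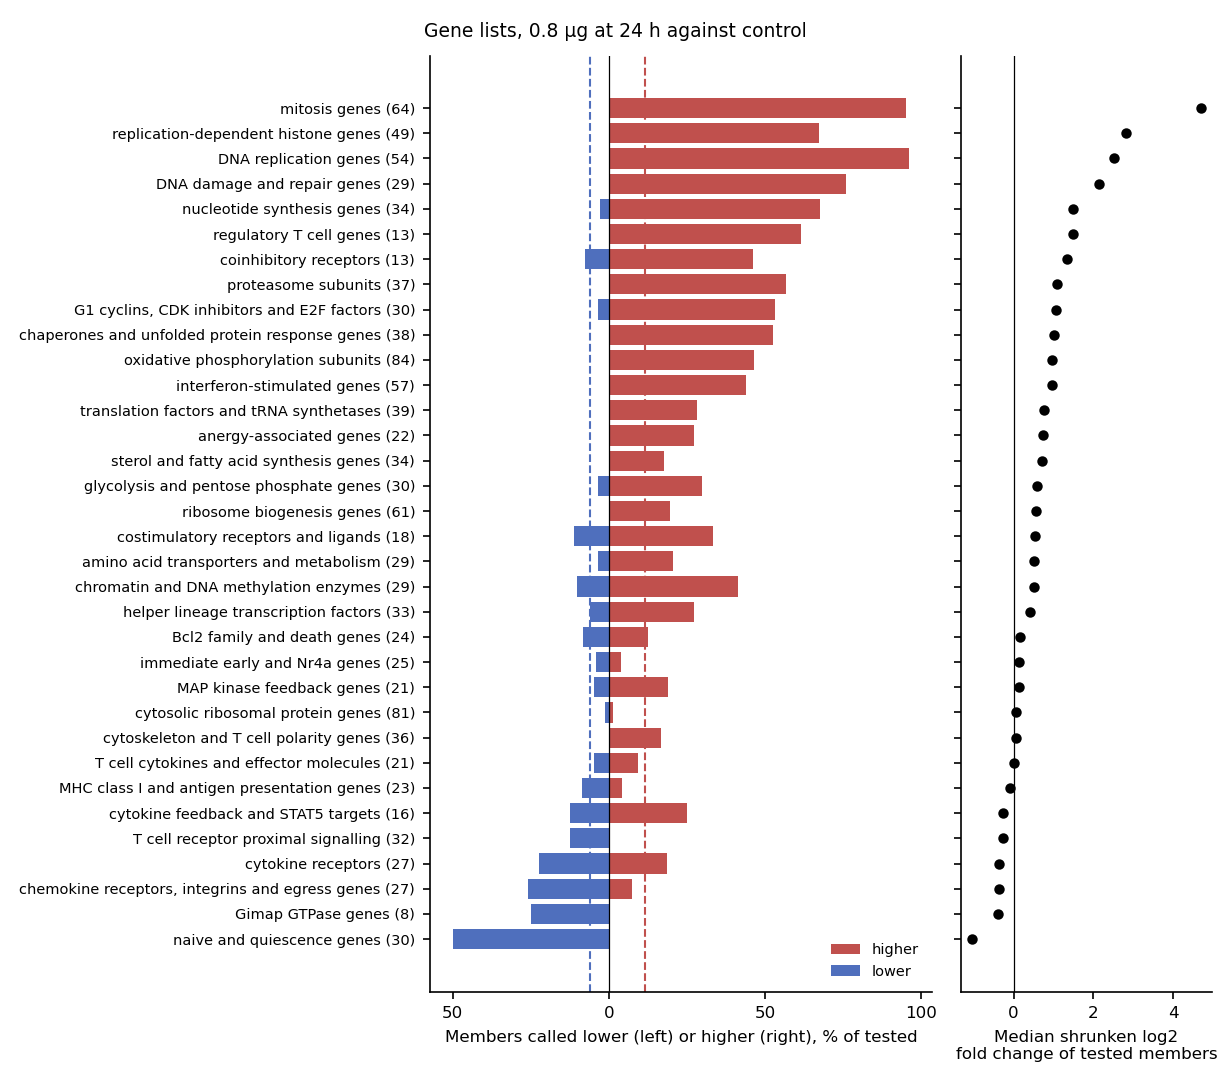
Left, the share of tested members of each list called higher (red, to the right) or lower (blue, to the left) at 24 h against control, in percent, with the number tested in brackets and dashed lines at the shares over all genes, 11.5% and 5.84%. Right, the median shrunken log2 fold change of the tested members, from -1.04 for naive and quiescence genes to 4.69 for mitosis genes.

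The replication machinery was higher almost in full. Of its 54 genes, 52 were higher, and the remaining members, Rnaseh2a and Rpa1, had log2 fold changes of 0.92 and 0.68. Mcm10, which helps to activate the replicative helicase (chromosome 2, 4989714 to 5012791, minus strand), had 0, 0 and 1.43 normalised counts in control replicates 1, 2 and 3 and 371, 422 and 192 in the 24 h replicates. The gene was thus at or under the floor in every control library and at least 94.6-fold higher at 24 h (adjusted p = 5.37e-14). Orc1, the large subunit of the origin recognition complex, was at 0, 1.01 and 0 in the control and at 96.4, 110 and 39.2 at 24 h, at least 23.6-fold higher (adjusted p = 4.89e-09). In both genes replicate 3 was the lowest of the 24 h libraries, and no 24 h library came near the control. Cdc6, which loads the helicase together with Cdt1, rose by 5.44 on the log2 scale (SE 0.39), Uhrf1, which reads hemimethylated DNA behind the fork, by 5.76 (SE 0.32) and the sliding clamp Pcna by 2.41 (SE 0.14). Dtl, an adaptor of the ligase that destroys Cdt1 in S phase, rose from 6.18, 5.07 and 8.57 normalised counts in the control to 645, 606 and 330 at 24 h (6.07, SE 0.37).

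Promoters of the replication genes were searched on both strands, from 250 bases before to 50 bases after the RefSeq start, for the E2F letters TTTCGCGC, TTTGGCGC, TTTCCCGC and TTTGCCGC. RefSeq sequence of the same build as the counts (GRCm38.p6) was matched for 41 of the 52 higher genes, and 17 of the 41 (41.5%) held 1 of these words. The share was 5.12% among 8814 tested genes with a matched promoter, 10.9% among genes called higher, 1.55% among genes called lower and 2.6% among 27025 genes in all. Orc1 (chr4:108579204-108579503, plus strand) and Cdc6 (chr11:98907901-98908200, plus strand) are shown as members with a single match each, in capitals and reading on the opposite strand, at -27 to -20 and at -138 to -131 from the start. A match describes the letters and is no evidence of binding.
Orc1: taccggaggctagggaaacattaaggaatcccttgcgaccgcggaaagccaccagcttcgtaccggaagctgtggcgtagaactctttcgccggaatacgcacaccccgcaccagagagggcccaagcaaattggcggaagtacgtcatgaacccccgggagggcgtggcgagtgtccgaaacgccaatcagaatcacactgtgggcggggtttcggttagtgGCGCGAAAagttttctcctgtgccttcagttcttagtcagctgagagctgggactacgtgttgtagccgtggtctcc
Cdc6: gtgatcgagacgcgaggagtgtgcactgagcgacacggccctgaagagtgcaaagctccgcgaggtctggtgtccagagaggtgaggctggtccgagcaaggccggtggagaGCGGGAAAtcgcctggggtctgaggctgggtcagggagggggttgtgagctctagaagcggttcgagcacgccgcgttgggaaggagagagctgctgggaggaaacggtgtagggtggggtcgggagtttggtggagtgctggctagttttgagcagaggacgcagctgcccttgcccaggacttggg

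Enzymes that supply deoxynucleotides were higher with the replication genes. In all, 23 of 34 nucleotide synthesis genes were higher and 1 was lower (median 1.5). Rrm2, the small subunit of ribonucleotide reductase, had 9.28, 3.04 and 4.28 normalised counts in the control and 645, 648 and 448 at 24 h (6.45, SE 0.38, adjusted p = 5.87e-54). Thymidine kinase, Tk1, had 2.06, 6.09 and 4.28 counts in the control and 450, 403 and 315 at 24 h (6.28, SE 0.42). Both genes were lowest at 24 h in replicate 3, which was still far above every control library. Impdh1, an enzyme of guanine nucleotide synthesis, was the member that fell (-1.02, SE 0.15), a call lost without control replicate 1 (-0.92) or 24 h replicate 2 (-0.95). Its close relative Impdh2 rose by 1.73.

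Mitosis genes held the highest median of the lists, 4.69, and 4.67 with the 8 genes at the floor set at their lower bound. Mki67, a coat protein of mitotic chromosomes and the usual marker of cycling cells (chromosome 7, 135689784 to 135716361, minus strand), had 22.7, 33.5 and 51.4 normalised counts in the control and 2467, 3028 and 2002 at 24 h, a log2 fold change of 5.75 (SE 0.50, adjusted p = 2.09e-28). Hmmr, a spindle protein, was at 1.03, 2.03 and 4.28 in the control and at 369, 376 and 198 at 24 h, at least 90.5-fold higher. Cenpf, a kinetochore protein, rose by 6.54 (SE 0.43) and Tpx2, which activates Aurora A on the spindle, by 6.09 (SE 0.35). Control levels were low but not all at the floor, and each of these genes was lowest in replicate 3 among the 24 h libraries. Topoisomerase Top2a rose from a mean of 98.7 ± 26.4 to 3399 ± 436 normalised counts (SD, n = 3). The 3 members not called were Smc4 (0.82), Cdc25b (0.35) and Bub3 (0.14).

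The CHR letters TTTGAA, an element known from promoters of late cell cycle genes, were found on either strand in 35 of 52 matched promoters of higher mitosis genes (67.3%), against 14.5% of tested genes and 20.2% of all genes. The E2F letters were in 5 of the 52 (9.62%). Hmmr (chr11:40733388-40733687, minus strand) is shown for its single match, 9 to 14 bases after the start.
Hmmr: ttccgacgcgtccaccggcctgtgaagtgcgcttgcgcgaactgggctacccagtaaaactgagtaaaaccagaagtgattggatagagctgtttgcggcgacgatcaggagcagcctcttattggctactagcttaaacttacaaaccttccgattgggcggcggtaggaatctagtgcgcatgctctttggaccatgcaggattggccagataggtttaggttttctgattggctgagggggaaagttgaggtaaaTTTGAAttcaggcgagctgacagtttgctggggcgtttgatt

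Of the replication-dependent histone genes, whose messages are made in S phase, most of those tested rose, and many lie close to the floor in the control. Of 65 such genes in the table, 54 passed the filter, 49 were tested, 33 were higher, none was lower and 16 were not called. Their median log2 fold change was 2.81, or 2.07 with the 27 genes at the floor in 1 group set at their bound. The higher count was 24 without 24 h replicate 1 and 27 without 24 h replicate 2 or control replicate 2. Hist1h3c (chromosome 13, 23744973 to 23745602, minus strand) was at 0 in every control library and at 247, 225 and 134 normalised counts at 24 h, at least 58.2-fold higher (adjusted p = 1.41e-14). The linker histone Hist1h1b was at 2.06, 2.03 and 2.86 in the control and at 349, 365 and 296 at 24 h, at least 96.9-fold higher. These genes have near-identical copies, so how reads were shared among them is uncertain, and most of their messages lack the poly(A) tail that the priming of these libraries uses. Hmgb2, a chromatin protein of dividing cells that also has close copies, rose by 3.75 (SE 0.18), Lmnb1, of the nuclear lamina, by 2.99 (SE 0.14) and the DNA methyltransferase Dnmt1 by 2.00 (SE 0.16).

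Among regulators of the cell cycle, 16 of 30 tested genes were higher and 1 lower (median 1.07). The cyclin Ccne2, which drives entry into S phase, rose by 5.80 (SE 0.50), and the repressors E2f8 and E2f7 rose by 5.32 (SE 0.46) and 4.90 (SE 0.55). E2f7 was at 2.06, 0 and 5.71 normalised counts in the control and its value moved to 5.52 without control replicate 3. E2f5, a repressor of resting cells, was the gene that fell (-1.51, SE 0.35), from 32, 50.7 and 37.1 to 13.6, 12.1 and 14.5. The D cyclin Ccnd2 had a log2 fold change of -0.84 and the inhibitor Cdkn1b one of -0.75, neither of which passed the fold threshold. In the repair list, the checkpoint kinase Chek1 rose by 5.02 (SE 0.43). The p53 target Cdkn1a had a log2 fold change of 0.68 (adjusted p = 0.398). Its means were 1.64 normalised counts in the control and 3.32 at 24 h, close to the floor of 3 counts.

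**Figure D3:**
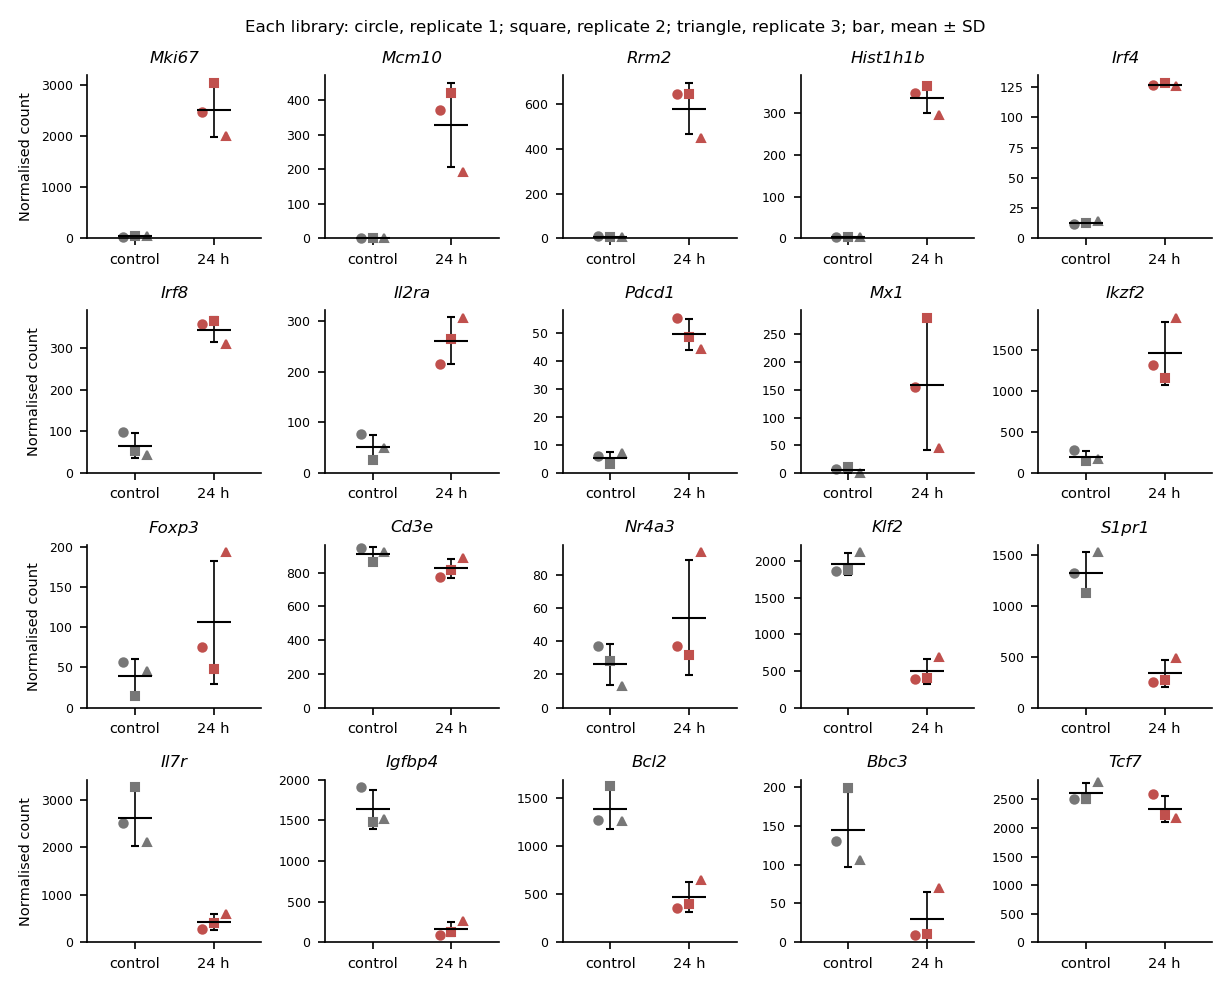
Normalised counts of 20 genes in each control library (grey) and each library at 24 h after 0.8 µg (red), on a linear axis from 0, with symbols for replicates 1 to 3 and the mean ± SD. The proliferation genes of the top row lie near 0 in the control, with Mki67 between 2002 and 3028 at 24 h, whereas the groups overlap for Foxp3, Cd3e, Nr4a3 and Tcf7.

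Protein synthesis and energy genes were higher to a smaller degree and in part. The ribosome biogenesis list had 12 of 61 genes higher and none lower (median 0.56), and only 5 with library totals as the scaling. Npm1, a nucleolar chaperone with many processed copies, had 1413, 1455 and 1356 normalised counts in the control and 5361, 5765 and 4401 at 24 h (1.87, SE 0.09, adjusted p = 5.79e-94). Nucleolin, Ncl, which shares exons with small RNA genes, rose by 1.74 (SE 0.09). Among translation factors and tRNA synthetases 11 of 39 were higher (median 0.77), led by the valine tRNA synthetase Vars (2.04, SE 0.16) and Eif5a (1.90, SE 0.10). In the ribosomal protein list the calls were Rps27l, also a p53 target (1.78, SE 0.15), and Rps27 (-1.16, SE 0.11), genes that are close copies of each other, and 2 genes of the list were lower without 24 h replicate 3 or control replicate 1.

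Oxidative phosphorylation subunits were higher in 39 of 84 (median 0.97), proteasome subunits in 21 of 37 (median 1.09) and chaperones in 20 of 38 (median 1.01), with none lower in these 3 lists. With library totals the counts were 33, 15 and 15, and without 24 h replicate 3 they were 44, 26 and 23. Atp5k, a subunit of the ATP synthase, rose from 311, 289 and 210 normalised counts to 1121, 1078 and 802 (1.87, SE 0.14). Psma4, of the 20S proteasome, rose from 163, 148 and 157 to 544, 657 and 443 (1.80, SE 0.15). The mitochondrial chaperone Hspd1 rose by 2.58 (SE 0.22), the cytosolic Hsp90aa1 by 2.31 (SE 0.24) and Sdf2l1, of the endoplasmic reticulum, by 3.29 (SE 0.32). By contrast Xbp1 and Ddit3, transcription factors of the unfolded protein response, were not called (-0.47 and -0.48).

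Glycolysis genes were higher in 9 of 30, with 1 lower (median 0.60). Hexokinase 2, Hk2, had 12.4, 2.03 and 2.86 normalised counts in the control and 94.4, 58.8 and 61.9 at 24 h (3.25, SE 0.42), and its value was 3.90 without control replicate 1. Lactate dehydrogenase A, Ldha, rose by 1.56 (SE 0.13), and Pdk1, which holds back the entry of pyruvate into mitochondria, fell by 1.44 (SE 0.14). The glucose transporters Slc2a1 and Slc2a3 were not called (0.16 and -0.01). Of sterol and fatty acid genes 6 of 34 were higher (17.6%, against 11.5% over all genes, median 0.72). The count was 4 with library totals or without 24 h replicate 2. Among the 6 were Scd2, a fatty acid desaturase (2.20, SE 0.18), Pmvk, of the mevalonate pathway (2.25, SE 0.37) and Cyp51, of sterol synthesis (1.49, SE 0.22). In amino acid metabolism 6 of 29 were higher (median 0.52) and 1 was lower, a call kept in 1 of the 6 fits that left out 1 library, that without 24 h replicate 1. The higher genes were led by the branched-chain transaminase Bcat1 (2.06, 0 and 1.43 normalised counts in the control and 53.5, 50.4 and 41.3 at 24 h, at least 13.9-fold), the serine enzyme Psat1 (3.49, SE 0.20) and the transporter Slc43a3 (3.35, SE 0.46, and 4.03 without control replicate 1). The log2 fold change of Bcat1 was 4.22, and 3.62 without control replicate 2.

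Interferon-stimulated genes were higher in 25 of 57 (43.9%, median 0.96), with none lower. The count was 17 without 24 h replicate 2, 31 without 24 h replicate 3 and 20 with library totals. Mx1, an antiviral GTPase (chromosome 16, 97447035 to 97462907, minus strand), had 7.22, 10.1 and 0 normalised counts in the control and 155, 280 and 44.4 at 24 h (3.78, SE 0.84, adjusted p = 0.000134). Ifit3b was at 3.09, 10.1 and 1.43 in the control and at 68.1, 106 and 18.6 at 24 h (3.39, SE 0.63), and Ifi44 at 4.12, 8.11 and 21.4 and at 161, 165 and 26.8 (2.96, SE 0.72). In each of these genes replicate 3 was the lowest at 24 h and replicate 2 the highest. The value of Mx1 was 3.02 without 24 h replicate 2, that of Ifit3b 2.74 without 24 h replicate 2 and 4.26 without control replicate 2, and that of Ifi44 3.64 without 24 h replicate 3 and 3.61 without control replicate 3. Isg15, a ubiquitin-like modifier, rose by 2.72 (SE 0.37). Irf7 (0.94) and Irf9 (0.22), transcription factors of the interferon response, did not pass the fold threshold. Ifit3b and Ifit3 are close copies, so the division of reads between them is uncertain.

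The interferon response letters GAAANNGAAA were in 11 of 16 matched promoters of higher interferon-stimulated genes (68.8%), against 3.95% of tested genes and 3.99% of all genes, both strands searched. Ifit3b (chr19:34607707-34608006, plus strand) is shown as a member with 2 matches, in capitals and reading on the opposite strand, at -188 to -179 and -154 to -145 from the start.
Ifit3b: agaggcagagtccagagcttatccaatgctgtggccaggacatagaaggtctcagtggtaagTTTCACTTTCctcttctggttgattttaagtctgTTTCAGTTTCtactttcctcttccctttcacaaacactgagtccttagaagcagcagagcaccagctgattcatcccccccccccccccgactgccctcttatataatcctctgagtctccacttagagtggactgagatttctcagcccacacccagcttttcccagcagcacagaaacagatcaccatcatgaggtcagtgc

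The transcription factor Irf4, whose level follows TCR signalling (chromosome 13, 30749226 to 30766976, plus strand), had 11.3, 12.2 and 14.3 normalised counts in the control and 127, 129 and 126 at 24 h (3.20, SE 0.28, adjusted p = 3.13e-27). The 24 h libraries were nearly level for this gene and did not overlap the control. Irf8 rose from 99, 53.8 and 42.8 to 357, 366 and 310 (2.34, SE 0.18), Il2ra, the alpha chain of the interleukin 2 receptor, from 76.3, 25.4 and 50 to 215, 265 and 307 (2.32, SE 0.26), and Il2rb, its beta chain, by 2.42 (SE 0.18). Among lineage transcription factors 9 of 33 were higher and 2 lower (median 0.41), with Eomes, a T-box factor (2.82, SE 0.47, and 3.43 without control replicate 2) and Myb (2.62, SE 0.18) among the higher and Runx1 (-1.30, SE 0.14) and Prdm1 (-1.33, SE 0.42) the lower. Prdm1, the gene of Blimp-1, lost its call without 24 h replicate 1 (adjusted p = 0.0576) and without control replicate 3 (adjusted p = 0.0846).

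Few immediate early genes were called. Of 25 tested, Fosb was higher and Ier2 lower, and the median was 0.14, with 3 genes higher without 24 h replicate 2 and 2 higher without 24 h replicate 1 or any 1 control library. By the adjusted p alone, 5 of the 25 were higher and 1 lower, against 20.8% and 15.2% over all genes tested. Rel (0.82) and Tnf (0.71) were among the 5. Nr4a3, the gene that drives the Timer, had 37.1, 28.4 and 12.9 normalised counts in the control and 37, 31.7 and 93.9 at 24 h, with replicate 3 alone outside the control range (0.96, SE 0.40, adjusted p = 0.0456). It passed the adjusted p but not the fold threshold, and its value was 0.37 without 24 h replicate 3 and 1.19, 1.25 and 1.18, past both thresholds, without 24 h replicate 1, 24 h replicate 2 and control replicate 1. Sorting used its reporter, and the part of the gate in this level was not tested. Nr4a1 was at 18.6, 26.4 and 64.2 in the control and at 75.9, 65.3 and 81.6 at 24 h (adjusted p = 0.0352, with a fold change just under the threshold), and it was called without control replicate 3 (1.58). Cd69 (0.23), Egr2 (-0.02) and Myc (-0.59) were not called, and the control and 24 h libraries overlapped for Egr2, an NFAT target linked to anergy. Ier2, an early growth response gene, fell by 1.10 (SE 0.22), a call lost without 24 h replicate 2 (-0.96) or control replicate 3 (-0.88).

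Coinhibitory receptors and ligands were higher in 6 of 13 tested genes, with 1 lower (median 1.33). Pdcd1, encoding PD-1, had 6.18, 3.04 and 7.14 normalised counts in the control and 55.5, 48.5 and 44.4 at 24 h (2.98, SE 0.41, adjusted p = 5.6e-11). Its ligand gene Pdcd1lg2 went from 7.22, 4.06 and 2.86 to 80.8, 49.4 and 23.7 (3.08, SE 0.48) and Ctla4, which competes with CD28 for its ligands, from 18.6, 7.1 and 31.4 to 172, 88.6 and 79.5 (2.43, SE 0.48). Cd160 rose by 3.04 (SE 0.48). It is also one of the NK and CD8 T cell markers. All 13 of these summed to 40.3 to 64.2 CPM in the control and 73.4 to 75.3 CPM at 24 h. Cd160 and Gzma were called here, and the 11 others summed to 38.2 to 58.6 and 50.2 to 55.6 CPM. Leaving out called genes favours overlap, and the part of NK and CD8 T cells in the rise of Cd160 was not tested. Vsir, encoding VISTA, a receptor of resting T cells, fell from 526, 433 and 461 to 97.4, 128 and 256 (-1.53, SE 0.28). Lag3 and Tigit were at 0 in every control library and close to 0 at 24 h, and were not called. Of costimulatory genes 6 of 18 were higher and 2 lower, among them Tnfrsf9, encoding 4-1BB (2.56, SE 0.41), Icos (1.26, SE 0.19) and Tnfrsf4, encoding OX40 (1.17, SE 0.27), the last not called without control replicate 2 (0.94). Cd40lg, the ligand that T cells show to B cells, fell by 1.02 (SE 0.19), a call lost without 24 h replicate 1, 24 h replicate 3 or control replicate 3, and Tnfrsf25 fell by 1.27 (SE 0.23), lost without 24 h replicate 2 (-0.998).

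Genes linked to regulatory T cells and anergy were higher in part. In the regulatory T cell list 8 of 13 genes were higher and none lower (median 1.48), 7 without 24 h replicate 3. Ikzf2, encoding Helios (chromosome 1, 69531214 to 69687245, minus strand), had 279, 141 and 169 normalised counts in the control and 1312, 1159 and 1890 at 24 h (2.86, SE 0.20, adjusted p = 1.41e-44). Lrrc32, which displays latent TGF-beta, rose by 2.61 (SE 0.51). Foxp3, the factor that defines the regulatory lineage and whose exons overlap those of Flicr on the same strand, had 56.7, 14.2 and 45.7 in the control and 75.9, 48.5 and 193 at 24 h (1.38, SE 0.46, adjusted p = 0.0116). Its groups overlapped, 24 h replicate 3 was by far the highest library, and the call was lost without that library (0.63, adjusted p = 0.296) or without control replicate 2 (1.02, adjusted p = 0.0953). In the anergy list 6 of 22 were higher and none lower (median 0.73), among them Nrn1, encoding neuritin (14.4, 4.06 and 0 in the control and 89.6, 62.5 and 107 at 24 h, 3.47, SE 0.44, and 4.39 without control replicate 1). The higher count of the anergy list was 9 without 24 h replicate 2 and 8 without 24 h replicate 1 or control replicate 1. The ubiquitin ligase Cblb (0.07) and the diacylglycerol kinase Dgkz (0.14) were not called. By the adjusted p alone, 9 of the 22 were higher and 3 lower, against 20.8% and 15.2% over all genes tested. The 3 were Dgka (-0.92), Itch (-0.52) and Ikzf1 (-0.47), each short of the fold threshold. Izumo1r and Nrp1, both called higher, count in this list and in the regulatory T cell list.

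Of 21 cytokine and effector genes tested, Cxcl10 and Gzma were higher (9.52%, near the 11.5% over all genes) and Il10 was lower (4.76%, near 5.84%), and 7 of the 21 were at or under the floor in both groups, while 4 were higher without control replicate 3 and 2 were lower without control replicate 2. Lta and Ltb, encoding lymphotoxins, passed the adjusted p but not the fold threshold (0.99, adjusted p = 0.000188, and -0.83, adjusted p = 0.00155). Il10 had 3.09, 0 and 9.99 normalised counts in the control and 0 in 2 of the 3 libraries at 24 h, where every library was under the floor, and its control was at least 1.48-fold higher (adjusted p = 0.0476). The call was lost without control replicate 1 or 3 or 24 h replicate 2 or 3 (adjusted p from 0.0537 to 0.349). Gzma, a granzyme that is also an NK and CD8 marker, rose from 4.12, 11.2 and 12.9 to 31.2, 49.4 and 36.1 (1.91, SE 0.55). Tbx21, encoding T-bet, had 9.28, 11.2 and 4.28 in the control and 29.2, 16.8 and 6.19 at 24 h (0.92, SE 0.40, adjusted p = 0.0507), and it was called without 24 h replicate 3 (1.31) or control replicate 2 (1.05). Among cytokine receptors 5 of 27 were higher and 6 lower, with Il12rb1 at least 14.3-fold higher and Il6ra lower (-1.66, SE 0.16). The higher count was 3 without control replicate 1 or 2.

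The naive programme was lower in part. Il7r, the receptor for interleukin 7 (chromosome 15, 9505788 to 9530176, minus strand), fell from 2505, 3272 and 2104 normalised counts to 274, 418 and 594 (-2.57, SE 0.26, adjusted p = 7.97e-21). Klf2 fell from 1862, 1879 and 2128 to 397, 401 and 694 (-1.91, SE 0.37) and S1pr1, the receptor that lets T cells leave lymphoid organs, from 1322, 1129 and 1532 to 251, 270 and 491 (-1.90, SE 0.40). In these genes replicate 3 was the highest at 24 h, yet under each control library. Igfbp4, an insulin-like growth factor binding protein, fell from 1909, 1487 and 1512 to 91.5, 133 and 259 (-3.31, SE 0.22) and Pdlim4, an adaptor of the actin cytoskeleton, from 263, 189 and 271 to 10.7, 23.3 and 17.6 (-3.48, SE 0.60). By contrast Tcf7, a transcription factor of naive and memory T cells, had 2507, 2514 and 2807 in the control and 2587, 2233 and 2167 at 24 h and was not called (-0.16). Ccr7, a receptor for homing to lymphoid organs (-0.69, adjusted p = 1.15e-05), passed the adjusted p but not the fold threshold. By the adjusted p alone, 26 of the 30 naive and quiescence genes were lower and none was higher.

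Outside the lists, the largest falls, among genes above the count minimum and chosen for groups that did not overlap, were in Gm37283 (-3.73, SE 0.69), Ggt5, a gamma-glutamyl transferase (-3.47, SE 0.36), Rgs11 (-2.99, SE 0.61), Klrd1, encoding CD94 (-2.82, SE 0.47), Slc16a5, a monocarboxylate transporter (-2.74, SE 0.47), Dapk1, a death-associated kinase (-2.65, SE 0.47), Gm11346 (-2.54, SE 0.22), Cd55, a complement regulator (-2.53, SE 0.48) and Hs3st3b1, a heparan sulfate sulfotransferase (-2.50, SE 0.42). Ggt5 had 197, 190 and 206 normalised counts in the control and 10.7, 18.7 and 21.7 at 24 h.

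Receptors of homing and adhesion tended lower, with 7 of 27 lower and 2 higher (median -0.37), and 4 lower without 24 h replicate 2. The integrin Itgb3 fell from 330, 285 and 350 to 77.9, 124 and 85.7 (-1.73, SE 0.22) and the orphan receptor Gpr146 by 2.12 (SE 0.25). Cxcr5, the receptor for the B cell follicle, rose from 23.7, 9.13 and 15.7 to 68.1, 69.9 and 70.2 (2.03, SE 0.30) and Cxcr3, of inflamed tissue, from 29.9, 10.1 and 44.3 to 116, 88.6 and 72.3 (1.70, SE 0.36). In the Bcl2 family, Bcl2, the survival protein, fell from 1273, 1621 and 1258 to 359, 402 and 644 (-1.55, SE 0.19) and Bbc3, encoding the killer protein Puma, from 130, 199 and 106 to 9.74, 11.2 and 70.2 (-2.02, SE 0.65). Replicate 3 stood apart at 24 h for Bbc3, whose value was -3.57 without it. Bak1, a pore-forming death effector, rose by 1.40 (SE 0.28) and Bcl2l11, encoding Bim, had a log2 fold change of 0.56.

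Most genes of the TCR and its proximal signalling chain were not called. None of 32 genes was higher and 4 were lower (Pag1, Txk, Malt1 and Grap2), with a median of -0.28. The lower share was 12.5%, against 5.84% over all genes tested. Cd3e, a chain of the receptor complex, had 947, 864 and 922 normalised counts in the control and 775, 816 and 886 at 24 h (-0.14, adjusted p = 0.349), and Cd4 was at -0.17 (adjusted p = 0.349). Malt1, the paracaspase of the NF-kappaB branch, fell from 279, 222 and 224 to 78.9, 104 and 135 (-1.18, SE 0.19) and Pag1, a membrane anchor of the inhibitory kinase Csk, by 1.42 (SE 0.16). By the adjusted p alone, 16 of the 32 were lower and 2 higher, against 15.2% lower and 20.8% higher over all genes tested. Of feedback genes, Rgs1 rose by 2.13 (SE 0.40), Rasa3, a Ras GTPase activator, fell by 1.20 (SE 0.20) and Socs3, a brake on cytokine receptors, fell by 1.37 (SE 0.44), a call lost without 24 h replicate 1 (adjusted p = 0.0543).

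The class II gene H2-Aa, made mostly by B and dendritic cells, had 130, 71 and 75.7 normalised counts in the control and 38, 12.1 and 47.5 at 24 h (-1.42, SE 0.49, adjusted p = 0.0133), and its call was lost without 24 h replicate 2 (adjusted p = 0.108) or control replicate 1 (adjusted p = 0.115). Of the 14 B cell markers tested, 3 were lower (21.4%, against 5.84% over all genes), among them Ebf1 (-1.92) and Ighd (-1.41), and none was higher. Of 13 myeloid and dendritic cell markers Mpeg1 was higher (1.83, adjusted p = 0.0451; 7.69% of the list, under the 11.5% over all genes) and none was lower. Of 8 NK and CD8 T cell markers Cd160 and Gzma, described above, were higher (25%) and none was lower. B2m, the class I light chain, was at control level (0.02). The class I gene H2-Q7, which has near-identical copies, fell by 1.01 (SE 0.24) and the GTPases Gimap3 and Gimap8 each fell by 1.01, calls that sat on the fold threshold and were lost in 4 of the 6 fits that left out 1 library. Psmb10, an immunoproteasome subunit, rose by 1.14 (SE 0.21), lost without replicate 2 of either group.

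**Figure D4:**
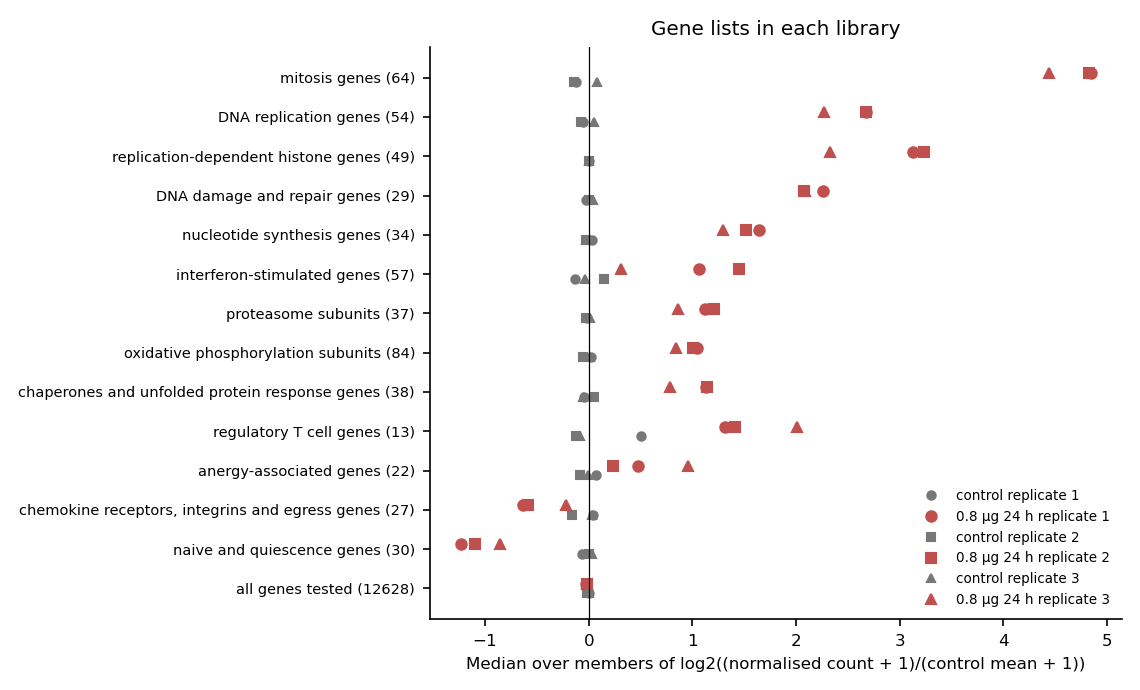
Median over the members of each list (number in brackets) of log2((normalised count + 1)/(control mean + 1)) in each control library (grey) and each 24 h library (red), with symbols for replicates 1 to 3. The 3 libraries at 24 h lay at 4.84, 4.83 and 4.44 for mitosis genes and at 1.06, 1.45 and 0.32 for interferon-stimulated genes, with replicate 3 the triangle nearer to the control in both.

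The plot of lists by library shows how far the 24 h replicates differed. Replicate 3 had the lowest median of the 3 for DNA replication (2.27, against 2.67 and 2.67), histones (2.33, against 3.13 and 3.23) and interferon-stimulated genes, and the highest for regulatory T cell genes (2.01, against 1.31 and 1.41) and anergy-associated genes (0.96, against 0.48 and 0.24). Its median for naive and quiescence genes was -0.86, against -1.23 and -1.10. Mitosis and replication medians in replicate 3 stayed far above the control libraries, which lay between -0.14 and 0.08 for mitosis. The counts of the leading lists changed little without it, at 52 of 54 for replication, 32 histone genes and 16 naive genes lower.

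The same dose at 12 h was compared next, to place the 24 h state in the course of the response. The gate also changed, from Blue positive and Red positive cells at 12 h, so that time and gate cannot be told apart. Of 12925 genes tested, 2209 were higher at 24 h than at 12 h (17.1%) and 1225 lower (9.48%). This comparison and the one with control share the 24 h libraries, and values are set side by side.

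Replication genes preceded mitosis and histone genes. Against 12 h, 18 of 54 replication genes were higher at 24 h (median 0.71), whereas 62 of 64 mitosis genes (median 3.71) and 40 of 51 histone genes (median 3.40) were. Orc1 had means of 0.34 ± 0.59, 97.8 ± 16.6 and 81.9 ± 37.6 normalised counts (SD, n = 3) in control, at 12 h and at 24 h, with no difference called between the last of these (adjusted p = 0.577). Mki67 had means of 35.8 ± 14.5, 17.4 ± 7.82 and 2499 ± 514, a rise of 6.68 from 12 h to 24 h (adjusted p = 8.63e-37). Hist1h1b went from 1.65 ± 1.92 at 12 h to 337 ± 35.7 at 24 h. Chek1 was like Orc1, with 213 ± 30.7 at 12 h and 189 ± 61.8 at 24 h (adjusted p = 0.661). Interferon-stimulated genes were higher at 24 h than at 12 h in 53 of 57 (median 2.98), while at 12 h the list medians of the 3 libraries lay below control, at -1.23, -1.36 and -1.87 on the scale of the plot of lists by library. Mx1 rose likewise from 12 h to 24 h (5.33 ± 7.36 and 160 ± 118).

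Growth genes went the other way. Of the ribosome biogenesis genes 58 of 61 were lower at 24 h than at 12 h (median -1.88), as were 23 of 39 translation factors (median -1.14) and 23 of 38 chaperones (median -1.10). Npm1 had 1408 ± 49.7 in control, 12170 ± 402 at 12 h and 5176 ± 701 at 24 h, so that it lay between control and 12 h. Hspd1 (183 ± 57.2, 4678 ± 726 and 1126 ± 271), Irf4 (12.6 ± 1.51, 537 ± 76.7 and 127 ± 1.44) and Bcat1 (1.16 ± 1.06, 321 ± 44.6 and 48.4 ± 6.36) took the same order. Oxidative phosphorylation subunits differed little between 12 h and 24 h, with 1 of 84 higher and 1 lower (median -0.14), and Tuba1b, an alpha-tubulin with close copies that also overlaps Gm49450, had 3121 ± 565 and 3114 ± 467 (adjusted p = 0.989).

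Genes of naive cells were higher at 24 h than at 12 h in 21 of 30, with 1 lower (median 2.19), and homing and egress genes in 17 of 27, with 1 lower (median 2.01). Klf2 had 1956 ± 149, 87.9 ± 61.5 and 497 ± 170, S1pr1 1328 ± 202, 14.3 ± 8.1 and 337 ± 134, and Il7r 2627 ± 594, 95.1 ± 11.1 and 428 ± 160. For Klf2, S1pr1 and Il7r the 24 h level was above 12 h and still below control. Nr4a3 fell from 562 ± 180 at 12 h to 54.2 ± 34.5 at 24 h (-3.25, adjusted p = 8.88e-17), beside a control mean of 26.1 ± 12.3.

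**Figure D5:**
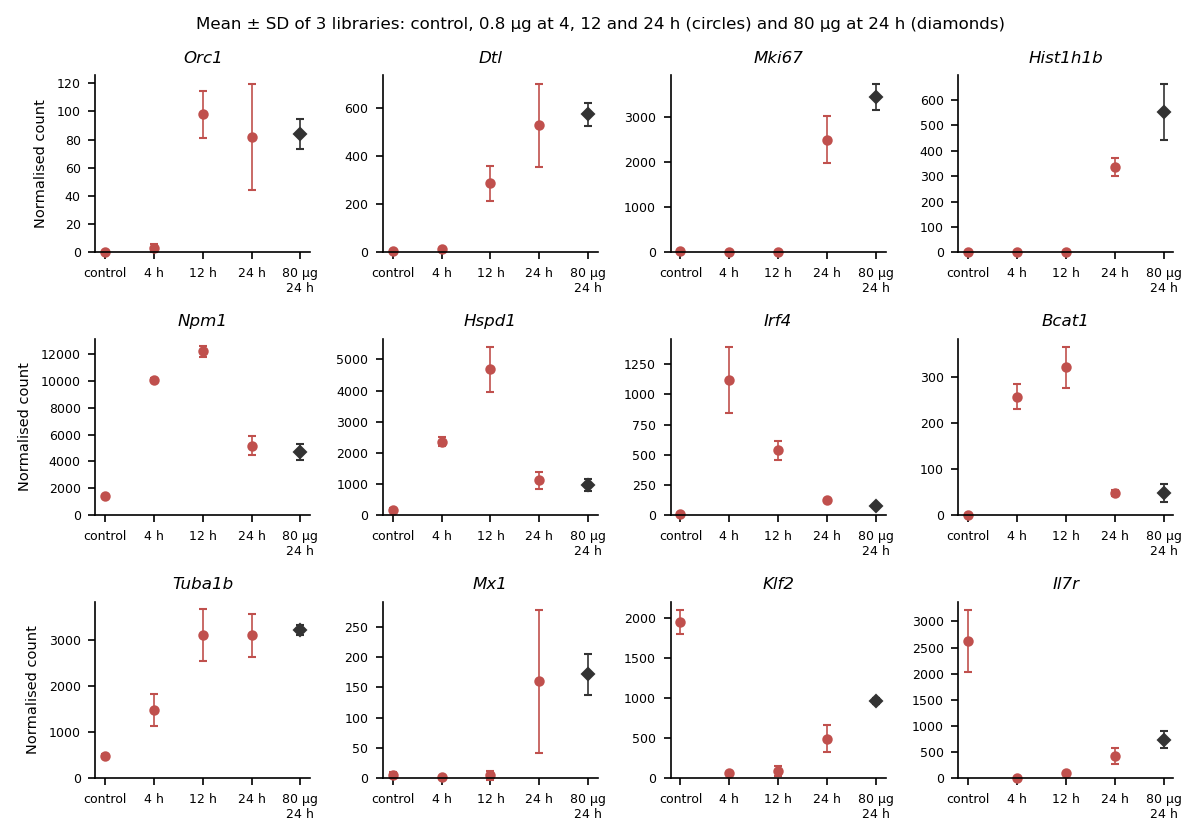
Mean ± SD of 3 libraries, in normalised counts on a linear axis from 0, for 12 genes in control and at 4 h, 12 h and 24 h after 0.8 µg (circles) and at 24 h after 80 µg (diamonds). Orc1 was high at 12 h and 24 h, Mki67, Hist1h1b and Mx1 at 24 h only, Npm1, Hspd1, Irf4 and Bcat1 at 4 h and 12 h with lower levels at 24 h, and Klf2 and Il7r were low at 4 h and 12 h and partly back at 24 h.

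The higher dose, 80 µg, was compared with 0.8 µg at 24 h, with the same gate. Of 9663 genes tested, 86 were higher with 80 µg (0.89%) and 65 lower (0.673%). None of 54 replication, 80 oxidative phosphorylation, 37 proteasome, 38 chaperone or 61 ribosome biogenesis genes was called, and 2 of 63 mitosis genes were higher with 80 µg (median 0.52). Mki67 had 2499 ± 514 with 0.8 µg and 3443 ± 291 with 80 µg (0.44, adjusted p = 0.729), and Irf4 127 ± 1.44 and 79 ± 11.9 (-0.66, under the fold threshold, adjusted p = 0.00822).

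Calls between the doses were spread over several lists, with 6 of 33 cytoskeleton genes, 5 of 23 homing and integrin genes and 5 of 25 cytokine receptors higher with 80 µg, 1 further cytokine receptor lower, and 1 of 32 TCR signalling genes (Malt1) higher. Immediate early genes were lower with 80 µg in 3 of 24 and anergy-associated genes in 3 of 20, with none higher in either list. The counts share genes, as Nr4a3 and Egr2, both lower with 80 µg, belong to both lists. Ikzf2 was 1454 ± 386 with 0.8 µg and 584 ± 52 with 80 µg (-1.30, adjusted p = 3.03e-09), both above the control of 196 ± 73.3. Eomes was 39.2 ± 12.6 and 6.45 ± 1.86 (-2.47, adjusted p = 1.08e-06), whereas Tbx21 was 17.4 ± 11.5 and 71.7 ± 24.3 (1.95, adjusted p = 1.57e-07). Malt1 was 106 ± 28.2 with 0.8 µg, and 244 ± 14.5 with 80 µg beside 242 ± 32.5 in control (1.19, adjusted p = 1.36e-07). In the naive and quiescence list 5 of 30 genes were higher with 80 µg, Pdlim4 among them (17.2 ± 6.31 and 152 ± 52.5, 2.87, adjusted p = 0.000205). Klf2 (0.92, adjusted p = 0.142), S1pr1 (0.41, adjusted p = 0.689) and Pdcd1 (-0.41, adjusted p = 0.508) were not called between the doses, which does not show that they were alike.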

How the data were processed

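The authors trimmed reads of 3' end libraries (QuantSeq, poly(A)-primed, 4 lanes merged), aligned them to GRCm38 with STAR 2.5.2a and deposited raw HTSeq counts per gene and DESeq2 rlog values on the log2 scale. The annotation release, the strand setting, any use of molecular identifiers and the gate for control cells were not given in the sources used here. From the counts, DESeq2 1.42.0 (R 4.3.3) was fitted to the 21 libraries with 7 groups after dropping genes under 10 counts in all, with median-ratio size factors, a Wald test, a shrunken log2 fold change and Benjamini-Hochberg adjustment. All adjusted p are from this fit or, where stated, the same fit without 1 library. Alternatives used edgeR 4.0.16 and limma 3.58.1. The script was tested on simulated data. Values per library are normalised counts. Replicates are separate mice per the labels, and p-values rest on the spread between replicates, estimated over all 7 groups together.

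Named genes were the 12 largest changes each way, the 3 largest each way in each list (for both, only genes whose groups did not overlap and whose mean normalised count reached 20), and 26 genes fixed by name, 139 in all. Of these, 39 have exons over a gene on the opposite strand, so their reads could be shared if strand was not used. Rnaseh2a, Rpa1, Cdc6, Pcna, Impdh2, Top2a, Smc4, Cdc25b, Bub3, Dnmt1, Ccnd2, Cdkn1b, Cdkn1a, Xbp1, Ddit3, Ldha, Slc2a1, Slc2a3, Isg15, Irf7, Irf9, Fosb, Rel, Tnf, Lag3, Tigit, Cblb, Dgkz, Dgka, Itch, Ikzf1, Izumo1r, Nrp1, Cxcl10, Bcl2l11, Grap2, Ebf1, Ighd, Mpeg1, Lta, Ltb and B2m were named after their values were seen. The comparison and the gene lists were chosen with earlier results of these data known. Symbols were taken from the deposited table (15249 genes) and GENCODE (51 genes). Some genes are not reported here.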

Additional observations from a re-analysis of the deposited data

Results flagged for a closer look

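Of 136 named genes with an adjusted p for 80 µg against 0.8 µg at 24 h, 19 differed between the doses, so that their change from control was not the same with each dose, by the test of that difference in the DESeq2 fit with Benjamini-Hochberg adjustment. The values below are log2 differences, 80 µg minus 0.8 µg. Over all genes tested, 0.89% were higher and 0.673% lower with 80 µg. Most of the named genes were chosen for large changes in the same 0.8 µg libraries that enter this difference, so a smaller change from control with 80 µg is favoured by that choice, and the count is a description.

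With 80 µg, 7 of the genes were lower. Eomes differed by -2.465 (adjusted p = 1.08e-06), Nr4a3 by -2.315 (adjusted p = 6.25e-06) and Egr2 by -2.033 (adjusted p = 0.00132). The receptors Cd160 and Tnfrsf9 differed by -1.927 (adjusted p = 4.88e-05) and -1.454 (adjusted p = 0.00401). Nrn1 differed by -1.646 (adjusted p = 0.000205) and Ikzf2 by -1.304 (adjusted p = 3.03e-09). Each of these calls was kept when any of the 6 libraries was left out, except that of Tnfrsf9, which was lost without replicate 3 of the 0.8 µg group (-0.898).

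The other 12 genes were higher with 80 µg. Pdlim4 differed by 2.866 (adjusted p = 0.000205), Klrd1 by 1.885 (adjusted p = 0.00409), Hs3st3b1 by 1.338 (adjusted p = 0.0349), Igfbp4 by 1.066 (adjusted p = 0.000205) and Gpr146 by 1.288 (adjusted p = 4.88e-05). The signalling genes Malt1 and Rasa3 differed by 1.189 (adjusted p = 1.36e-07) and 1.226 (adjusted p = 2.16e-07), and Socs3 by 1.336 (adjusted p = 0.0411). Itgb3 differed by 1.448 (adjusted p = 5.12e-09) and Il18r1, a chain of the interleukin 18 receptor, by 1.196 (adjusted p = 0.0214). Of the transcription factors, Tbx21 differed by 1.953 (adjusted p = 1.57e-07) and Prdm1 by 1.355 (adjusted p = 0.0241). The calls of Pdlim4, Gpr146, Malt1, Rasa3, Itgb3 and Tbx21 were kept in all 6 fits that left out 1 library, that of Klrd1 in 4, that of Igfbp4 in 3 and those of Il18r1, Socs3, Hs3st3b1 and Prdm1 in 1 each.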

How the results depend on the processing

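A test against a log2 fold change of 1 called 529 genes higher and 60 lower at 24 h against control, 1283 against 12 h and 8 between the doses, and the adjusted p alone called 2632, 1919, 5689 and 573, as the stricter and looser thresholds imply. With only the 2 groups compared in the fit, 83 genes were called between the doses (151 in the 21-library fit), and the cause was not tested. Leaving out each library in turn gave 1288 to 1492 higher and 604 to 896 lower genes against control, 3105 to 3399 called against 12 h and 122 to 157 between the doses. Every other setting stayed within 1.5 times, from 1222 (library totals) to 1510 (edgeR) higher genes and from 595 (limma on rlog values) to 1039 (library totals) lower genes. Replicate numbers did not pair the libraries, as same-numbered deviations correlated at -0.17, -0.0479 and -0.0645, and the fit with the replicate number as a block called 1414 higher and 730 lower genes, 3371 against 12 h and 138 between the doses. Single genes were followed in every setting except the stricter test and the adjusted p alone. In those settings 119 of the 139 named genes kept their side of the thresholds, and no direction was reversed. Genes near the floor of 3 counts, such as most cytokines, are limited by depth.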

Other observations

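Small nucleolar RNAs, which guide the modification of ribosomal RNA and are released from introns of host genes, were higher in 20 of 80 tested (25%, median 0.98) and lower in 1. The shares over all genes tested were 11.5% higher and 5.84% lower. These libraries were primed on poly(A) tails. Whether the counts come from the small RNAs or from longer transcripts that hold them was not tested. Several of the higher members were at 0 in every control library. Snora73b had 9.28, 12.2 and 12.9 normalised counts in the control and 130, 187 and 148 at 24 h (3.64, SE 0.29, adjusted p = 3.57e-32). Snora30 had 7.22, 9.13 and 0 in the control and 55.5, 44.8 and 47.5 at 24 h (2.88, SE 0.50), and Snora68 was at least 7.13-fold higher. The groups did not overlap for any of these, which were named after their values were seen. Of the 20 higher, 15 lie within a protein-coding gene on the same strand and 5 touch a coding exon. In 16 pairs of a higher small nucleolar RNA and its host gene, the host was higher in 5 and not called in 11. Among 52 pairs for those not called, the host was higher in 10 and lower in 3.

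Transcripts that the annotation marks as still to be experimentally checked (TEC) stood on the other side, with 101 of 543 lower (18.6%) and 6 higher (1.1%), against 546 of 10598 protein-coding genes lower (5.15%) and 1343 higher (12.7%). Of the 101, 79 lie within a protein-coding gene on the same strand and 3 touch its exons, beside 345 of the 436 that were not called. In 80 pairs of such a lower transcript and its host gene, the host was lower in 21, higher in 2, not called in 56 and not tested in 1. Among 356 pairs for the transcripts not called, the host was lower in 18, higher in 17, not called in 308 and not tested in 13. Sense intronic transcripts were lower in 12 of 97 (12.4%) and higher in 2, and lincRNAs were lower in 23 of 223 (10.3%) and higher in 13.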
